A study of Mus musculus with 2 samples.

Results

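Blood cell miRNAs are short RNAs of red cells, granulocytes, monocytes and lymphocytes, and 10 of the 1973 miRNA gene rows measured in the newborn mouse adrenal gland belong to them. They were chosen by name for their known cell of origin and not by a rule on their values, though earlier results of these data were known. The erythroid genes are Mir451a, Mir144 and Mir486, the myeloid gene is Mir223, and Mir142 is found in all leukocytes. The lymphoid and immune activation genes are Mir342, Mir150, Mir155, Mir146 and Mir146b. The gene Mir142 has no row in the tables, and its level was read from the opposite strand of Mir142b, the gene annotated across from it. All samples were adrenal glands of B6NCrl mice on postnatal day 0, without any treatment or genetic change named in the labels. Each of the 2 libraries held both glands of 1 pup, and pup 2 and pup 1 came from the same pregnancy. The labels give both the same donor identifier, so the spread over n = 2 would be technical if that identifier meant a single animal. Per the labels, their sex is unrecorded.

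Mature miRNAs are cut from hairpin precursors, load into Argonaute proteins and repress transcripts that match their seed, bases 2 to 8 of the miRNA. Blood cells each carry a characteristic set, so these RNAs mark red cells, granulocytes and lymphocytes in a tissue that holds vessels and resident immune cells. The adrenal gland is richly supplied with blood, and its resident macrophages lie between the steroid-producing cells of the cortex and the chromaffin cells of the medulla. In whole glands, fewer cells of a type and less RNA per cell cannot be told apart, and neither can blood left in the vessels and cells resident in the gland.

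The sequences that define these miRNAs are shown because their seeds set the families and because their overlaps on opposite strands bear on the counts. Of the 10 genes, 9 had at least 1 mature sequence in the RefSeq table of build GRCm38.p6, with 15 mature sequences among them, and the seed is in capitals. The arms shown are, apart from Mir142, those known as the main products.
miR-451a: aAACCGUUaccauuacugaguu
miR-144-3p: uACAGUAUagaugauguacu
miR-223-3p: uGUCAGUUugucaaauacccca
miR-142a-5p: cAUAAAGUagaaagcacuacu
miR-142a-3p: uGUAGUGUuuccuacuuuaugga
miR-142b: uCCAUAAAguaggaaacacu
miR-342-3p: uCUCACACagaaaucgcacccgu
miR-155-5p: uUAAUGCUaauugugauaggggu
miR-146a-5p: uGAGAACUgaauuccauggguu
miR-146b-5p: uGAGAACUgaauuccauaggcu
Among all mature mouse sequences of that table, the seed of miR-146a-5p was shared with miR-146b-5p. No other seed of the 15 mature sequences recurred in another entry. That table held only miR-150-3p for Mir150 and no mature sequence for Mir486. The seeds of miR-150-5p and of Mir486 were thus not compared, and neither gene is shown. The pair was identical at 20 of 22 bases and differed by G18A and U21C, counted from the 5′ end of miR-146a-5p. The 20 bases of miR-142b lie wholly across from miR-142a-3p and are the reverse complement of part of it.

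The libraries held 3327743 same-strand counts in pup 2 and 1131762 in pup 1, and levels are given as CPM, the count of a gene per 1000000 of these totals. Each read is a whole short RNA, so CPM was not divided by gene length, and the efficiency with which each sequence enters a library was not measured. Genes of other cell types set the scale. The endothelial Mir126a had a level of 102288 CPM in pup 2, against 81621 CPM in pup 1. The neuroendocrine Mir375 had 30415 CPM in pup 2, against 37586 CPM in pup 1. The hepatocyte Mir122 had 4081 CPM in pup 2, against 2979 CPM in pup 1. No miRNA known from the adrenal gland alone was among the markers used. The acinar pancreas markers had 7 counts in pup 2 and 1 in pup 1, and Mir216a was at 0 in both. The 6 epithelial genes, of which 4 were detected, summed to 642 CPM in pup 2, against 238 CPM in pup 1. Striated muscle genes, nearly all Mir206, summed over 5 rows to 418 CPM in pup 2, against 86.6 CPM in pup 1, with Mir1a-1 at 0 in both. The smooth muscle genes Mir143 and Mir145a summed to 19776 CPM in pup 2, against 15116 CPM in pup 1.

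Blood cell miRNAs were a small part of the counted miRNA reads of both pups. Together the 10 genes had 4801 CPM in pup 2 and 3935 CPM in pup 1, or 0.437% ± 0.0612 of the gene counts (SD, n = 2). Leukocyte genes held nearly all of it, with 4463 CPM in pup 2, against 3596 CPM in pup 1, over 7 genes. The 3 erythroid genes summed to 337 CPM in pup 2, against 339 CPM in pup 1. Detection, set at 10 CPM or more in both libraries, was reached by 9 of the 10 genes, against 13.9% of all 1973 rows on the same strand. The gene not detected was Mir146b. The exact 95% interval of the total share, which covers counting error only, was 0.473% to 0.488% in pup 2 and 0.382% to 0.405% in pup 1. The blood cell total was 1.22-fold higher in pup 2 (1.18 to 1.26). Markers of other cell types differed too, with ratios of pup 2 to pup 1 of 4.83 for striated muscle, 2.70 for epithelium, 1.37 for Mir122, 1.31 for smooth muscle and 1.25 for Mir126a, while Mir375 was lower at 0.809. Their part in the blood cell level was not tested.

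**Figure D1:**
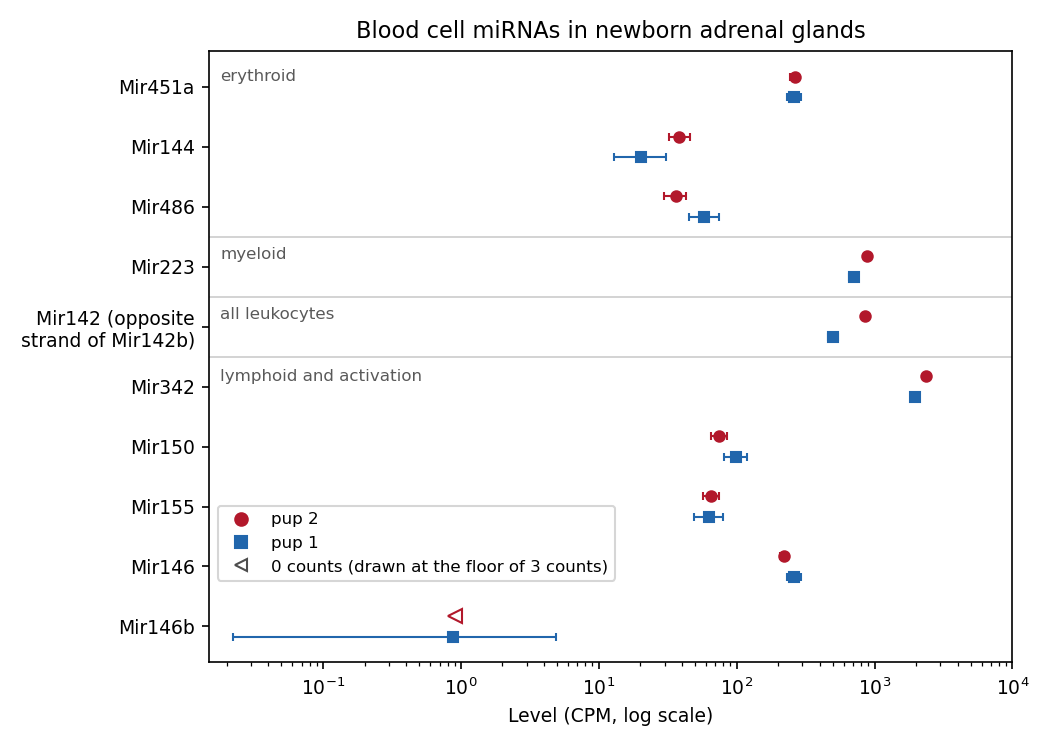
Level of each blood cell miRNA gene in CPM on a log scale, with pup 2 as circles above pup 1 as squares; bars are exact 95% counting intervals, and the open triangle marks 0 counts. Mir342 lies highest in both pups, Mir223 and Mir142 follow, and Mir146b lies at or under 0.902 CPM.

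The order of levels was led by leukocyte genes, and Mir486 and Mir144 were the lowest of the 9 detected. By mean level Mir342 came first, followed by Mir223, Mir142, Mir451a, Mir146, Mir150, Mir155, Mir486, Mir144 and Mir146b. The ranges of neighbours over the 2 pups overlapped for Mir223 with Mir142 and for Mir486 with Mir144. The other 7 neighbouring pairs did not overlap, though Mir451a and Mir146 came close, at no less than 261 CPM for Mir451a and up to 259 CPM for Mir146. Among all gene rows, Mir342 ranked 50, Mir223 ranked 86 and Mir451a ranked 146 of the 635 with a same-strand count.

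The erythroid miRNAs were led by Mir451a, the abundant miRNA of red cells, which is matured by Argonaute 2 without Dicer. It had 263 CPM from 874 counts in pup 2 and 261 CPM from 295 counts in pup 1. These values were almost equal, at a ratio of pup 2 to pup 1 of 1.01 (95% counting interval 0.882 to 1.15). Mir451a made up 77.9% of the erythroid counts in pup 2 and 76.8% in pup 1. Its hairpin has no host gene in the annotation and lies at chr11:78073170-78073241 on the plus strand (ENSMUSG00000070065.1). Mir451b, annotated on the minus strand of the same bases, has no row, and Mir451a had 0 opposite-strand counts in both pups.

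Mir144, made from the same primary transcript as Mir451a, was far less abundant in both pups. Its hairpin ends 99 bases before that of Mir451a, at chr11:78073005-78073070 (ENSMUSG00000065401.1). It had 38.5 CPM from 128 counts in pup 2 and 20.3 CPM from 23 counts in pup 1. The level was thus higher in pup 2, by 1.89-fold (1.21 to 3.09). Within each library Mir451a exceeded Mir144, by 6.83-fold (5.67 to 8.29) in pup 2 and 12.8-fold (8.39 to 20.6) in pup 1.

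Mir486, which lies in an intron of the erythrocyte ankyrin gene Ank1, went the other way from Mir144. It had 36.1 CPM from 120 counts in pup 2 and 58.3 CPM from 66 counts in pup 1. Its level was lower in pup 2, at a ratio of 0.618 (0.454 to 0.848). The hairpin is at chr8:23142555-23142682 on the plus strand (ENSMUSG00000070084.3). Another miRNA gene, Mir3107, is annotated within the same bases on the minus strand and has no row in the tables. Reads that fit more than 1 place were not counted, and how many belong to Mir486 was not tested. Which cells the counted reads of Mir486 came from was not tested either.

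The ratio between Mir144 and Mir486 does not depend on library size. It was 1.07 (0.825 to 1.38) in pup 2 and 0.348 (0.207 to 0.568) in pup 1, a 3.05-fold difference between the pups (1.74 to 5.48). Both genes rest on few counts in pup 1, and the intervals leave out biological variation. The erythroid sum itself was at a ratio of 0.994 (0.884 to 1.12), so the opposite differences of Mir144 and Mir486 were not seen in the sum, which is mostly Mir451a.

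Mir223, the miRNA of granulocytes and monocytes that is also carried by platelets, was the second most abundant of the set. It had 883 CPM from 2939 counts in pup 2 and 704 CPM from 797 counts in pup 1. The level was higher in pup 2, by 1.25-fold (1.16 to 1.36). Mir223 exceeded Mir451a within each library, by 3.36-fold (3.12 to 3.63) in pup 2 and 2.70-fold (2.36 to 3.10) in pup 1. It lies in an exon of the noncoding gene F630028O10Rik at chrX:96242817-96242926 on the plus strand (ENSMUSG00000076066.1).

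Mir142, made in all leukocytes, was counted only through the row of its antisense neighbour Mir142b. That row held 2852 opposite-strand counts in pup 2 and 565 in pup 1, and 0 same-strand counts in both. On the CPM scale this is 857 in pup 2 and 499 in pup 1. The level was higher in pup 2, by 1.72-fold (1.57 to 1.88). Mir142 was close to Mir223 in pup 2, at a ratio of 0.970 (0.921 to 1.02), and below it in pup 1, at 0.709 (0.635 to 0.791). The 0 same-strand counts allow up to 0.902 CPM of miR-142b in pup 2 and 2.65 CPM in pup 1, by a floor of 3 counts. Mir142b is annotated at chr11:87756841-87756955 on the minus strand (ENSMUSG00000065420.2), across from Mir142 in an intron of the noncoding gene Mir142hg.

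This row was one of few read on the opposite strand. Of 259 rows with at least 100 unstranded counts over both pups, 244 had more than 99% of them on the same strand and 10 more than 99% on the opposite strand. Beside Mir142b, those 10 held the antisense-named genes Mir299b and Mir497b and 7 genes with a Gm symbol. By its mean share of the opposite-strand column Mir142b ranked 7, with 2.72% in pup 2 and 1.44% in pup 1. Among the other members, Mir486 had 4 opposite-strand counts in pup 2 and 2 in pup 1, Mir150 had 0 in pup 2 and 1 in pup 1, and the rest had none in either pup.

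**Figure D2:**
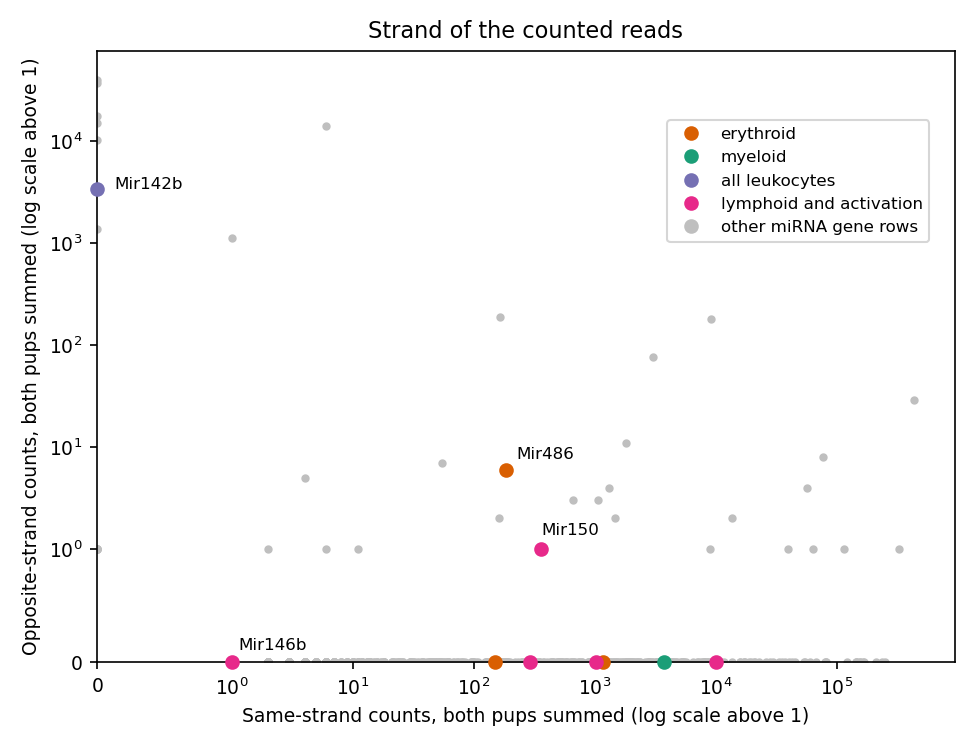
Same-strand counts (x axis) against opposite-strand counts (y axis) of each miRNA gene row, summed over both pups, with blood cell miRNAs coloured by lineage and the other rows in grey; both axes are logarithmic above 1. Mir142b stands at 0 on the x axis, while 7 of the other 9 members have 0 opposite-strand counts.

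Mir342, known from lymphocytes and monocytes but not confined to them, was the most abundant gene of the set and gave about as many counts as the other 9 together. It had 2363 CPM from 7862 counts in pup 2 and 1971 CPM from 2231 counts in pup 1. The level was higher in pup 2, by 1.20-fold (1.14 to 1.26). Mir342 held 49.2% of the counts of the 10 genes in pup 2 and 50.1% in pup 1. It lies in an intron of Evl, a gene of actin dynamics, at chr12:108658620-108658718 on the plus strand (ENSMUSG00000065436.1). Its ratio to Mir223 was near equal between the pups, at 2.68 (2.56 to 2.79) in pup 2 and 2.80 (2.58 to 3.04) in pup 1.

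Mir150, the miRNA of mature resting lymphocytes, was one of the scarcer leukocyte genes. It had 74.5 CPM from 248 counts in pup 2 and 98.96 CPM from 112 counts in pup 1, at a ratio of 0.753 (0.600 to 0.950). The direction was thus opposite to that of Mir342. Mir342 exceeded Mir150 by 31.7-fold (27.9 to 36.1) in pup 2 and 19.9-fold (16.5 to 24.3) in pup 1. Mir150 has no host gene in the annotation and lies at chr7:45121757-45121821 on the plus strand (ENSMUSG00000065495.1). Mir5121, the other miRNA gene within 10 kb of it, has no row.

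Mir155, induced in activated lymphocytes and macrophages, was low in both pups. It had 65.5 CPM from 218 counts in pup 2 and 62.7 CPM from 71 counts in pup 1, at a ratio of 1.04 (0.795 to 1.39). Counting error alone covers that difference. Its hairpin lies in an exon of the host gene Mir155hg at chr16:84714140-84714204 on the plus strand (ENSMUSG00000065397.1).

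Mir146, the gene of miR-146a, which dampens Toll-like receptor signalling, was more abundant than Mir155. It had 221 CPM from 734 counts in pup 2 and 259 CPM from 293 counts in pup 1, at a ratio of 0.852 (0.743 to 0.979). Within each library Mir146 exceeded Mir155, by 3.37-fold (2.89 to 3.93) in pup 2 and 4.13-fold (3.17 to 5.43) in pup 1. The gene lies at chr11:43374397-43374461 on the minus strand (ENSMUSG00000065601.1).

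Mir146b, the paralogue with the same seed, had 0 counts in pup 2 and 1 count in pup 1. It was not detectable at this depth, since 0 counts in pup 2 allow up to 0.902 CPM. In pup 1 its interval ran from 0.0224 to 4.92 CPM. Reads of the paralogues share a run of 17 bases, and the counts of the 2 rows rest on the remaining bases. Mir146b lies in an intron of Mfsd13a at chr19:46342762-46342870 on the plus strand (ENSMUSG00000070127.2).

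Between the littermates, blood cell miRNAs varied about as much as other miRNAs of the gland. None of the 9 members whose mean reached 10 CPM differed by 2-fold, beside 5.28% of the 284 genes at that level, so their count is near that background. On the log2 scale with a prior of 1 CPM, the members ran from -0.68 for Mir486 to 0.89 for Mir144. Their median was 0.06 with an SD over genes of 0.52, beside 0.08 and 0.54 for the 284 genes. The counting interval of the ratio left out 1 for 7 of the 9 members, beside 63% of the 284 genes. It lay above 1 for 4 members, beside 38.7% of genes, and below 1 for 3, beside 24.3%. These counts hold for CPM without further scaling. Intervals that leave out 1 are thus common between these libraries. With 1 library per pup no test between the pups was possible.

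**Figure D3:**
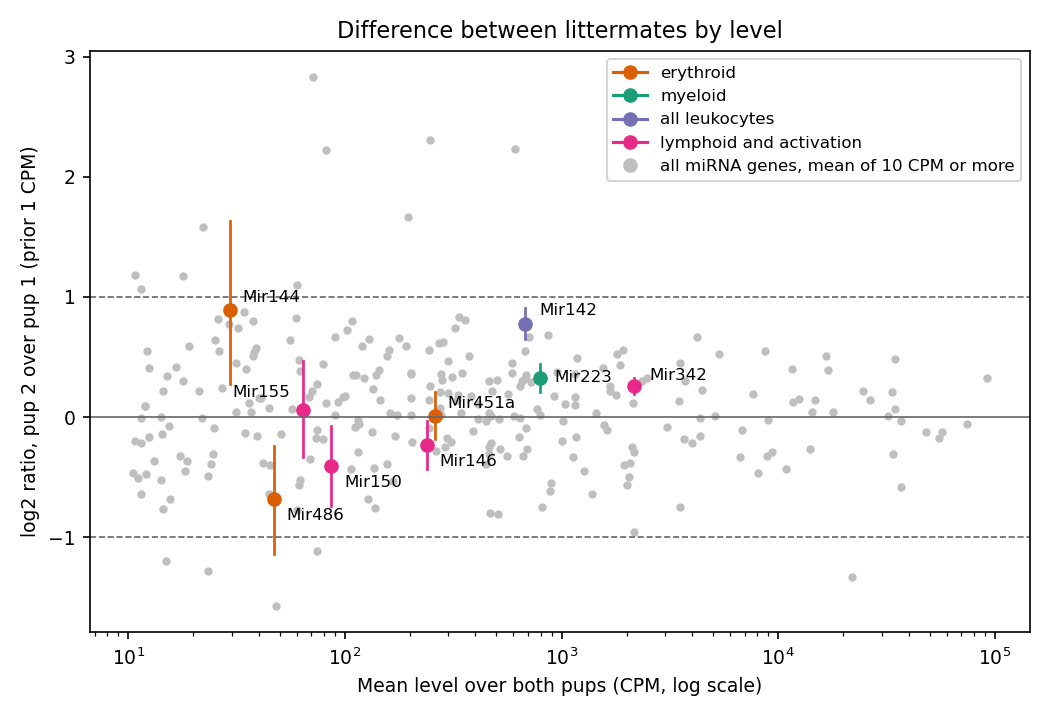
Log2 ratio of pup 2 over pup 1 (y axis, prior of 1 CPM) against the mean level in CPM (x axis, log scale) for the 284 genes at a mean level of at least 10 CPM in grey and 9 blood cell miRNAs in colour. Bars are 95% counting intervals of the plain ratio; all 9 points lie between the dashed lines of 2-fold difference, with Mir144 at 0.89 and Mir486 at -0.68.

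Members of a single lineage did not share 1 direction between the pups. Mir144 was higher, Mir486 lower and the interval of Mir451a included 1 in the erythroid group. In the lymphoid and activation group, Mir342 was higher in pup 2, Mir150 and Mir146 were lower and the interval of Mir155 included 1. Under TMM, an alternative scaling that moves log2 ratios up by 0.11, the intervals of Mir150 and Mir146 include 1 too. The leukocyte sum exceeded the erythroid sum by 13.2-fold (12.5 to 14.1) in pup 2 and 10.6-fold (9.54 to 11.8) in pup 1. Without Mir142, which was read on the other strand, these ratios were 10.7 (10.1 to 11.4) in pup 2 and 9.13 (8.21 to 10.2) in pup 1. Mir342, which other cells express too, held 52.9% of the leukocyte sum in pup 2 and 54.8% in pup 1. Without Mir342 the ratios to the erythroid sum were 6.23 (5.85 to 6.64) in pup 2 and 4.79 (4.29 to 5.36) in pup 1. Any reads of Mir486 that fit more than 1 place are missing from the erythroid sum in each of these ratios. Their number was not tested, and the intervals do not cover it.

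**Figure D4:**
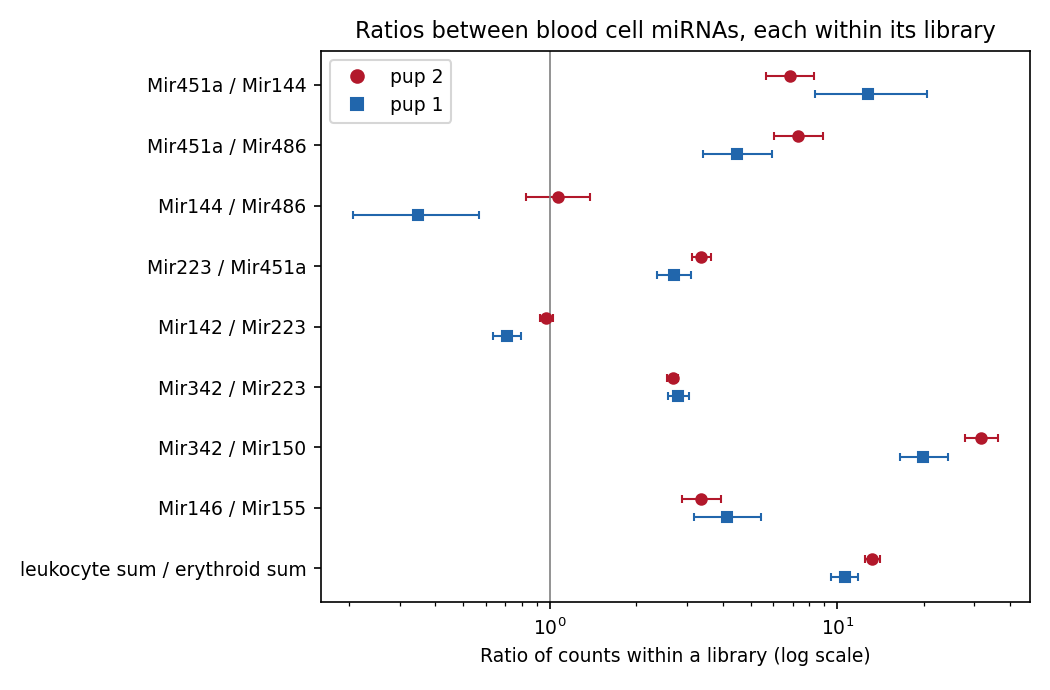
Ratios of counts between blood cell miRNAs within each library (x axis, log scale), with pup 2 as circles above pup 1 as squares and 95% counting intervals as bars. Mir144 over Mir486 lies at 1.07 in pup 2 and 0.348 in pup 1, and Mir342 over Mir223 at 2.68 in pup 2 and 2.80 in pup 1.

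The gene rows closest to each member in level over the 2 libraries, by distance on the log2(CPM + 1) scale, are given as a description. Nearest to Mir155 was Mir363, at a distance of 0.02, and nearest to Mir150 was Mir128-1, at 0.04. Mir7j lay nearest to Mir144, Mir760 to Mir486, Mir27b to Mir342, Mir338 to Mir146 and Mir25 to Mir451a, at 0.08 to 0.11. Mir101b at 0.12 lay nearest to Mir142 and Mir137 at 0.19 to Mir223. The next in order were Mir496a for Mir451a, Mir129-2 for Mir144, Mir1198 for Mir486, Mir483 for Mir223, Mir543 for Mir142, Mir15a for Mir342, Mir193a for Mir150, Mir30b for Mir155 and Mir673 for Mir146. With 2 libraries this likeness describes levels only.

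Other miRNAs studied in blood formation, most of which many tissues express, were abundant in the same glands. Of 46 such genes outside the set, 45 had a row and 41, among them Mir126a and Mir10a, were detected in both pups. Over all 1973 rows the share detected was 13.9%, with 1338 rows at 0 in both pups. The list was chosen with earlier results known, so its higher share is not a result about blood-linked genes. Their sum was 35.1% of gene counts in pup 2 and 31.7% in pup 1. Of 42 whose mean reached 10 CPM, 2 were at least 2-fold higher in pup 2, beside 3.52% of all genes, and 0 at least 2-fold lower, beside 1.76%. Both counts are near those shares and are no result about blood-linked genes. The 2 higher genes were Mir196b and Mir181a-2. Mir196b, a Hox cluster miRNA of blood progenitors, had 1001 CPM in pup 2, against 212 CPM in pup 1. Mir181a-2, of a family active in T cells, was at 82.3 CPM (pup 2) and 38.0 CPM (pup 1). Other rows of that family stayed below 2-fold, at ratios of 1.17 for Mir181a-1, 1.18 for Mir181b-2, 1.41 for Mir181c and 0.831 for Mir181d. Mir181b-1 held only 2 counts in pup 2 and 1 in pup 1. Mir181a-2 is a numbered copy, so its row can lack reads shared with Mir181a-1, and their number was not tested. Over the 42 genes the median log2 ratio was 0.18, beside 0.06 for the members. By kind, 14 of 14 erythroid-linked genes with a row were detected, 6 of 7 myeloid, 12 of 15 lymphoid and 9 of 9 of stem, progenitor and megakaryocyte cells. The lymphoid rows not detected were Mir181b-1, Mir19b-1 and Mir26a-1, each a numbered copy with another locus. Reads that fit more than 1 place were not counted, so these counts by kind do not compare lineages.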

How the data were processed

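Each table the authors deposited holds the raw counts of reads on miRNA genes in 1 library, in unstranded, same-strand and opposite-strand columns. The deposited text notes name the assembly mm10 and the GENCODE M4 annotation. Per the labels, the size range was below 30 nucleotides. For the aligner and the trimming, nothing was given in the sources used here. Rows that name no gene were left out of the totals: multi-mapped reads were 32.2% of all reads in pup 2 and 34.9% in pup 1, unmapped reads 11.2% in pup 2 and 10.6% in pup 1, and reads outside genes 3.86% in pup 2 and 4.03% in pup 1. Symbols, coordinates and host genes come from GENCODE M21 on the same assembly, which named 1894 of 1973 rows.

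CPM was computed here with a total of 1000000 per library. Shares have exact Clopper-Pearson 95% intervals and ratios exact conditional Poisson intervals, computed with scipy 1.17.1. Reads copied by PCR were not marked by molecular identifiers, so these intervals and the floors hold counting error alone. The interval code was tested on simulated data. Alternative scalings used edgeR 4.0.16 (TMM) and DESeq2 1.42.0. With a single group no group test was run. The named genes are all members, miRNA genes overlapping or within 10 kb of them, the 2 rows nearest in level, genes sharing a seed, and fixed marker and blood-linked lists. Members and lists were chosen with earlier results of these data known.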

Additional observations from a re-analysis of the deposited data

Results flagged for a closer look

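Mir486 had 4 counts on the strand that was not used in pup 2, above the floor of 3 counts, and 2 in pup 1. The gene Mir3107 is annotated on that strand within the hairpin of Mir486. These reads were not part of any level given for Mir486.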

How the results depend on the processing

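No paired analysis was possible because the study has a single group. Over 213 recomputed values, 185 moved by less than the spread between pups, counting error or, for counts of genes, 1.5 times. Part of that count was fixed in advance, so it does not measure stability. Leaving out 1 of 2 pups cannot move a mean by more than their SD. Using the same-strand column of Mir142b leaves the levels of all other members unchanged. With all reads of the tables as the denominator, the summed level was 2257 CPM for the 10 genes, 174 for erythroid, 410 for myeloid, 352 for Mir142 and 1321 for lymphoid and activation genes. Without Mir142b, or with its same-strand column, the total was 3690 CPM, and Mir142 itself was 0 CPM on that column. The unstranded column gave 329 CPM for erythroid genes, whose SD of 1.51 CPM between pups is small. At 100 CPM instead of 10 CPM, 5 members were detected. At a threshold of 1.5-fold, 3 members differed between pups, against 0 at 2-fold. The shares of all genes at 100 CPM and at 1.5-fold were not computed, so these counts do not set the members apart. Leaving Mir342 or Mir142 out of the ratio of leukocyte to erythroid counts was chosen after seeing the data, and gave 6.23 without Mir342 in pup 2 and 4.79 in pup 1. Leaving out 1 pup gave 3935 to 4801 CPM for the total and 9 detected members in each case. The recomputed 2-fold counts used log2 ratios with the prior of 1 CPM. TMM scaling moved these up by 0.11 and brought Mir144 to 0.99, just short of 2-fold. On the plain ratio, which the main 2-fold call used, the TMM shift puts Mir144 past 2-fold. The absence of members past 2-fold thus depends on the scaling. No member with a mean of 10 CPM or more changed direction under TMM, DESeq2 scaling, all reads, the unstranded column or another prior. After the TMM shift, though, the counting intervals of Mir150 and Mir146 no longer lie below 1. Mir146b, Mir144 and Mir486 rest on the fewest counts. For Mir486, reads that fit more than 1 place are a further limit, and their number was not tested.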
